A study of Rattus norvegicus with 6 samples.

Results

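The genes described here are those for voltage-gated calcium channels, voltage-gated sodium channels, calcium release channels, store-operated calcium entry, TRP cation channels and calcium pumps. They were chosen by name only, as every gene whose symbol begins with Cacn, Scn, Ryr, Itpr, Trpc, Trpm, Trpv, Atp2a, Atp2b, Atp2c, Orai or Stim followed, where the family is numbered, by its digit. The rule took 68 of 18625 named genes and used no measured value, although the genes were chosen with earlier results of these data known. Of these, 66 encode a channel, a pump or one of their subunits. Trpc4ap, a TRPC-associated protein, and Trpc5os, an opposite-strand transcript of Trpc5, were matched by name alone.

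RNA sequencing compared islets of Langerhans, the endocrine cell clusters of the pancreas, between rats after birth (3 libraries) and rat fetuses at embryonic day 19 (3 libraries). The postnatal titles all give 2 weeks of age, whereas the age labels of these libraries give postnatal weeks 2, 3 and 4 for replicates 1, 2 and 3. The labels give no strain, genotype or treatment for either group and describe both as freshly isolated pancreatic islet cells. Whether each replicate was a separate animal is not said, so every p-value here reflects the scatter among these samples alone, and that scatter may be technical. The question is how the islet transcriptome differs between 2 weeks of age and late fetal life.

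An islet beta cell secretes insulin when glucose metabolism depolarises its membrane. Voltage-gated sodium and calcium channels then carry an action potential, and the calcium that enters through L-type channels starts the release of hormone granules. Release channels in the endoplasmic reticulum (ER), store-operated entry and TRP channels add to the calcium and cation current, while pumps of the plasma membrane, the ER and the Golgi return calcium to its resting level.

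These 5 promoters are shown because 4 of them belong to sodium channel genes that lie in neighbouring pairs on 1 chromosome and were all higher after birth, and the other to Atp2a3, an ER calcium pump gene that was higher too. In RefSeq's gene order on the rat assembly GRCr8, Scn2a is the gene next to Scn3a, and Scn7a is the gene next to Scn9a. Each line gives the 250 bases before the gene's annotated start from RefSeq on GRCr8, 5′ to 3′ on the gene's own strand. Capitals mark a GC box (GGGCGG or its complement CCGCCC) or an E-box (CANNTG), searched on both strands. The coordinates are those of the sequence shown.
Scn3a, chr3:70666199-70666448, minus strand: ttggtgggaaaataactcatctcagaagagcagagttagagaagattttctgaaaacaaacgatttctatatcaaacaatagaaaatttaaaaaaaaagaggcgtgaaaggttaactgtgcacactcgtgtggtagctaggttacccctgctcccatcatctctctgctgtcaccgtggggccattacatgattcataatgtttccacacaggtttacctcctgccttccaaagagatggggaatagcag
Scn2a, chr3:70710706-70710955, plus strand: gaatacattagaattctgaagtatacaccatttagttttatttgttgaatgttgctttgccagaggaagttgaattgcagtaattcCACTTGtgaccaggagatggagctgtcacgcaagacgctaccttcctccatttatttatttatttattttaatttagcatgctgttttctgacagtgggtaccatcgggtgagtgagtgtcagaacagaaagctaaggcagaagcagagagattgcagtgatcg
Scn9a, chr3:71701378-71701627, minus strand: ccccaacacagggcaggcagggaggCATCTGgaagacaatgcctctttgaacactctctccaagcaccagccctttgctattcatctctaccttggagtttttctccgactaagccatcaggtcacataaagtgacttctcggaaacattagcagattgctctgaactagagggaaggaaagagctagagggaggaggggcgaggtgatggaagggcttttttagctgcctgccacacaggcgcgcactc
Scn7a, chr3:71846285-71846534, minus strand: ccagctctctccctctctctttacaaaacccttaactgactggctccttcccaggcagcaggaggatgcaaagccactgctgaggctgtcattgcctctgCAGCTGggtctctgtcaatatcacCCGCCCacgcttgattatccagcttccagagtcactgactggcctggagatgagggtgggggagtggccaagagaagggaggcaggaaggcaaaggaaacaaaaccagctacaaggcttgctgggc
Atp2a3, chr10:58080402-58080651, plus strand: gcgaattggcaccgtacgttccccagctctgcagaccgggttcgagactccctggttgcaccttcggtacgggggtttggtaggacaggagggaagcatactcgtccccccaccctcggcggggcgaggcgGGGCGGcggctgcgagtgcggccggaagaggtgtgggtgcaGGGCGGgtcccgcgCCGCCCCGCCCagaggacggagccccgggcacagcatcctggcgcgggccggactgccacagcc
The Atp2a3 window was 72.4% G and C and held 4 GC boxes, a pair of which overlap by 1 base. The sodium channel windows were less rich in G and C, at 41.6% for Scn3a, 39.6% for Scn2a, 52.4% for Scn9a and 56.0% for Scn7a. Among them the Scn7a window held 1 GC box and 1 E-box, the Scn2a and Scn9a windows 1 E-box each, and the Scn3a window neither.

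A promoter was matched for 57 of the 68 genes. A GC box lay in 26 of these 57 windows (45.6%), against 32.4% of 27457 genes with a promoter of this length. An E-box lay in 37 of 57 (64.9%), against 65.2% of all genes. TATAAA lay in 3 of the 57, against 13.1% of all genes, and the cAMP response element TGACGTCA in 0 of 57, against 1.70%. The median share of G and C was 59.2% in the channel and pump genes and 52.0% in all genes. These matches describe letters in a window and do not show binding.

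Expression is given as scaled CPM, reads scaled to a common total after the library sizes were adjusted to each other. Values by library are in the order of replicates 1, 2 and 3 of a group. The libraries held 28.2 to 29.5 M reads in the postnatal group and 26.1 to 37.8 M in the fetal group, so that 3 reads are worth 0.0726 to 0.152 scaled CPM. Hormone transcripts took 4.06% to 11.0% of the postnatal reads and 0.214% to 0.612% of the fetal reads, with no overlap. Transcripts of acinar cells, which secrete digestive enzymes, took a larger share than the hormones in every library, 18.6% to 37.0% after birth and 5.97% to 8.04% in the fetus. Postnatal replicate 1 had the highest acinar share, and fetal replicate 2 the highest sum of hepatocyte markers (6961 scaled CPM, against 204 and 271 in the other fetal libraries).

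Most of the genes measured above the minimum were higher after birth. Of the 68, 46 reached 1 scaled CPM or more in 3 or more libraries and were tested with limma on log2(value + 1), with Benjamini-Hochberg adjustment over all 12926 genes tested and a call at an adjusted p under 0.05. Among the 46, 35 were higher in the postnatal libraries (76.1%), where 30.0% of all genes tested were called higher. Only Trpm2 and Atp2c2 were lower (4.35%), where 33.1% of all genes tested were called lower. In either direction 37 of the 46 were called, against 63.1% of all genes tested. The median log2 fold change was 1.08 in the 46 genes and -0.03 in all genes tested. A difference of at least 2-fold was present in 24 of the higher genes and in both lower ones. The counts are for genes that passed the minimum. In 4 of them every postnatal library and no fetal library reached it, and the reverse held for none. Cacnb4, Ryr3, Trpc4, Trpc5, Trpv2 and Trpv4 also had fewer than 3 fetal libraries at the minimum. They too were tested only because of their postnatal values, and all of them were called higher. In bulk tissue, fewer cells of a type and less RNA per cell cannot be told apart.

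Postnatal and fetal values were without overlap in 37 of the 46 genes (80.4%), against 70.0% of all genes tested. The postnatal values lay above in 34 of these and below in 3. Cacnb1 and Scn8a were called higher although their groups overlapped. Trpm6 lay above and Trpv6 below without passing the test. Among the 35 higher genes, the lowest postnatal value was in replicate 1 in 28, and the highest was in replicate 3 in 21 and in replicate 2 in 11. Replicate 1 is also the postnatal library with the highest acinar share and the lowest summed level of the 6 islet hormones (59968 scaled CPM, against 62549 and 110913). Replicate numbers also follow the order of the age labels (given above), so labelled age and replicate number cannot be told apart. The part of labelled age, acinar share or hormone level in these orders was not tested. Without postnatal replicate 1 and fetal replicate 2, 33 genes were higher and the same 2 lower.

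**Figure D1:**
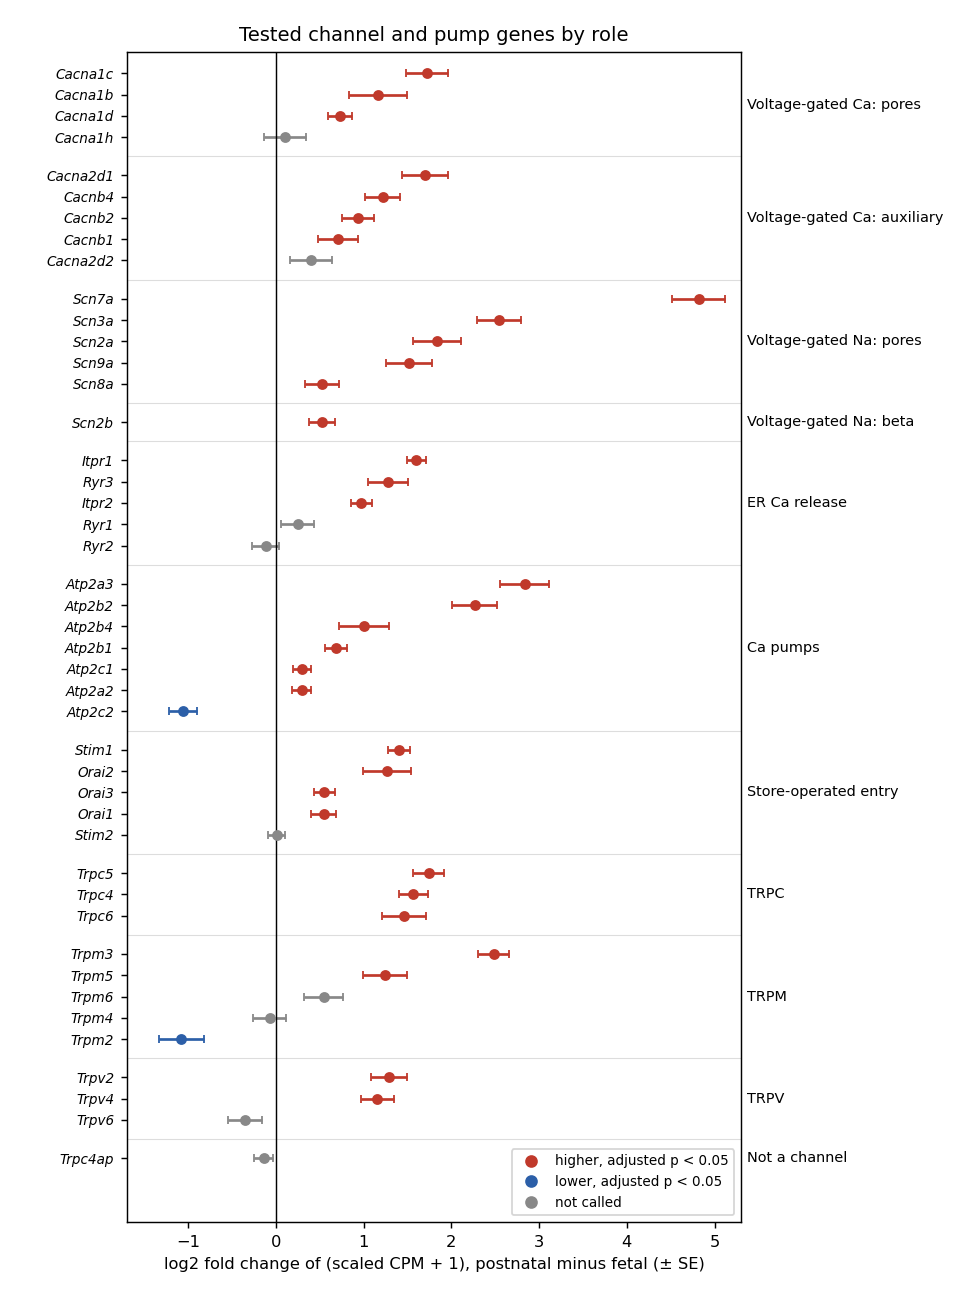
Tested genes that are reported by name, grouped by role, with the log2 fold change of (scaled CPM + 1) on the horizontal axis, postnatal minus fetal, and its standard error as a bar. Red points passed the test as higher, blue as lower and grey did not pass. Scn7a stands farthest to the right at 4.82, and Trpm2 and Atp2c2 are the blue points, at -1.08 and -1.06.

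Markers of several cell types moved in the same direction as these genes. The background for each count here is the share of all genes tested, 30.0% called higher and 33.1% called lower. All 6 islet hormones and 9 of 10 pan-endocrine genes were higher after birth, and the pan-endocrine list summed to 3407 to 6060 scaled CPM in the postnatal and 650 to 966 in the fetal libraries. All 8 mesenchyme and pericyte markers were higher too, with sums of 6758 to 11839 scaled CPM after birth and 1515 to 2270 in the fetus. So were all 8 endothelial markers, with sums of 694 to 1058 after birth and 245 to 377 in the fetus. Acinar markers were higher in 12 and lower in 1 of 16. Of 4 neuronal markers tested, 2 were higher, and the sum of 7 was 27.8 to 45.8 after birth and 19.5 to 26.7 in the fetus. Of 8 Schwann cell and glial markers, 5 were higher and 2 lower, and their sums overlapped, at 58.9 to 94.7 after birth and 64.7 to 83.6 in the fetus. Of 7 leukocyte markers tested, 4 were higher and 0 lower, and the sums overlapped, at 74.8 to 238 after birth and 42.6 to 107 in the fetus. Striated muscle markers summed to 10.6 to 14.9 after birth and 3.70 to 6.26 in the fetus, with 3 of 4 tested higher. Duct markers were lower in 4 of 8 and higher in 0, with sums that were lower, at 502 to 814 after birth and 872 to 996 in the fetus. Erythroid markers were lower in 7 of 8 and hepatocyte markers in 2 of 5 tested, the latter close to the share of all genes tested. Erythroid sums were 981 to 1542 after birth and 3038 to 10363 in the fetus, and hepatocyte sums 78.9 to 117 after birth and 204 to 6961 in the fetus. No marker in the table was at 0 in every library, and the part of these cells in the channel results was not tested.

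Both L-type pore genes that could be tested rose. L-type channels carry the calcium current that triggers insulin release. Cacna1c, encoding the alpha1C pore, had 33.7, 45.2 and 44.3 scaled CPM in the postnatal libraries, against 17.3, 10.7 and 8.42 in the fetal libraries. Cacna1d, encoding the alpha1D pore that opens at more negative voltages, had 68.2, 69.7 and 66.6 scaled CPM in the postnatal libraries, against 50.1, 34.5 and 39.0 in the fetal libraries. The groups were separate for both genes, and the 3 postnatal Cacna1d values lay within a few units of each other. Cacna1c rose by 1.72 ± 0.24 on the log2 scale (SE, adjusted p = 6.29e-04), and Cacna1d by 0.73 ± 0.14 on the log2 scale (SE, adjusted p = 0.00258). The Cav1 genes of retina and skeletal muscle, Cacna1f and Cacna1s, were not tested and peaked at 0.354 and 0.184 scaled CPM.

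Both L-type genes were also set against each other within each library. The Cacna1d to Cacna1c ratio was 2.02, 1.54 and 1.50 in the postnatal libraries, against 2.90, 3.22 and 4.64 in the fetal libraries. A ratio of counts within a library also carries the lengths of the transcripts, so only its difference between groups is read. Every postnatal ratio lay below every fetal ratio, and the log-scale mean of the postnatal ratios was 0.477 of the fetal one. A two-sided exact permutation test returned p = 0.1, the lowest p that 3 against 3 libraries can reach (0.125 when adjusted by Benjamini-Hochberg over 5 pairs).

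Of the other calcium channel pores, Cacna1b passed the test and Cacna1h did not. Cacna1b, encoding the N-type pore of nerve endings and endocrine cells, had 6.07, 9.33 and 9.94 scaled CPM in the postnatal libraries, against 5.07, 3.61 and 1.54 in the fetal libraries, without overlap. It rose by 1.16 ± 0.33 on the log2 scale (SE, adjusted p = 0.0153), a call that was lost without postnatal replicate 3 (adjusted p = 0.0513). Cacna1h, a T-type pore that opens near the resting potential, had 13.9, 24.1 and 17.0 scaled CPM in the postnatal libraries, against 21.7, 16.0 and 13.2 in the fetal libraries. These overlapped, and its log2 fold change of 0.10 ± 0.24 (SE, adjusted p = 0.723) did not pass. Cacna1e, the R-type pore, was not tested, at 0.354, 1.07 and 0.717 scaled CPM in the postnatal libraries and 1.29, 0.387 and 0.432 in the fetal libraries. Cacna1a, the P/Q-type pore, is not analysed here.

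Of the accessory subunits that traffic and tune these pores, 4 of the 5 tested rose. Cacna2d1, the alpha2delta subunit that binds gabapentin, had 62.7, 88.4 and 120.1 scaled CPM in the postnatal libraries, against 33.5, 27.8 and 19.3 in the fetal libraries. Its lowest postnatal value was well above its highest fetal value, and it rose by 1.70 ± 0.27 on the log2 scale (SE, adjusted p = 0.00101). Cacnb2, a cytoplasmic beta subunit, had 32.6, 38.3 and 47.6 scaled CPM in the postnatal libraries, against 25.1, 18.2 and 17.4 in the fetal libraries, again without overlap. It rose by 0.93 ± 0.18 on the log2 scale (SE, adjusted p = 0.00305).

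Both other beta subunit genes in the table passed too. Cacnb4 had 4.05, 3.82 and 2.80 scaled CPM in the postnatal libraries, against 1.41, 0.895 and 0.617 in the fetal libraries, and rose by 1.22 ± 0.20 on the log2 scale (SE, adjusted p = 0.00135). Cacnb1 had 2.99, 5.02 and 5.26 scaled CPM in the postnatal libraries, against 3.01, 2.01 and 1.85 in the fetal libraries. The lowest postnatal Cacnb1 value fell just below the highest fetal one, and its rise of 0.71 ± 0.23 on the log2 scale (SE, adjusted p = 0.0259) was lost when fetal replicate 2 or 3 or postnatal replicate 2 or 3 was left out (adjusted p 0.0743 to 0.0889). Cacna2d2 averaged 2.97 ± 1.16 scaled CPM in the postnatal and 1.92 ± 0.243 in the fetal libraries (SD, n = 3 each), and its log2 fold change of 0.40 ± 0.24 (SE, adjusted p = 0.174) did not pass, though it did without postnatal replicate 3 (log2 fold change 0.65, adjusted p = 0.0198). Cacna2d3 peaked at 1.45 and Cacna2d4 at 0.447 scaled CPM, and neither was tested. The 5 Cacng genes, for skeletal muscle gamma subunits and AMPA receptor auxiliary proteins, were not tested either, the highest value being 0.888 for Cacng4. Cacnb3 is not analysed here.

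**Figure D2:**
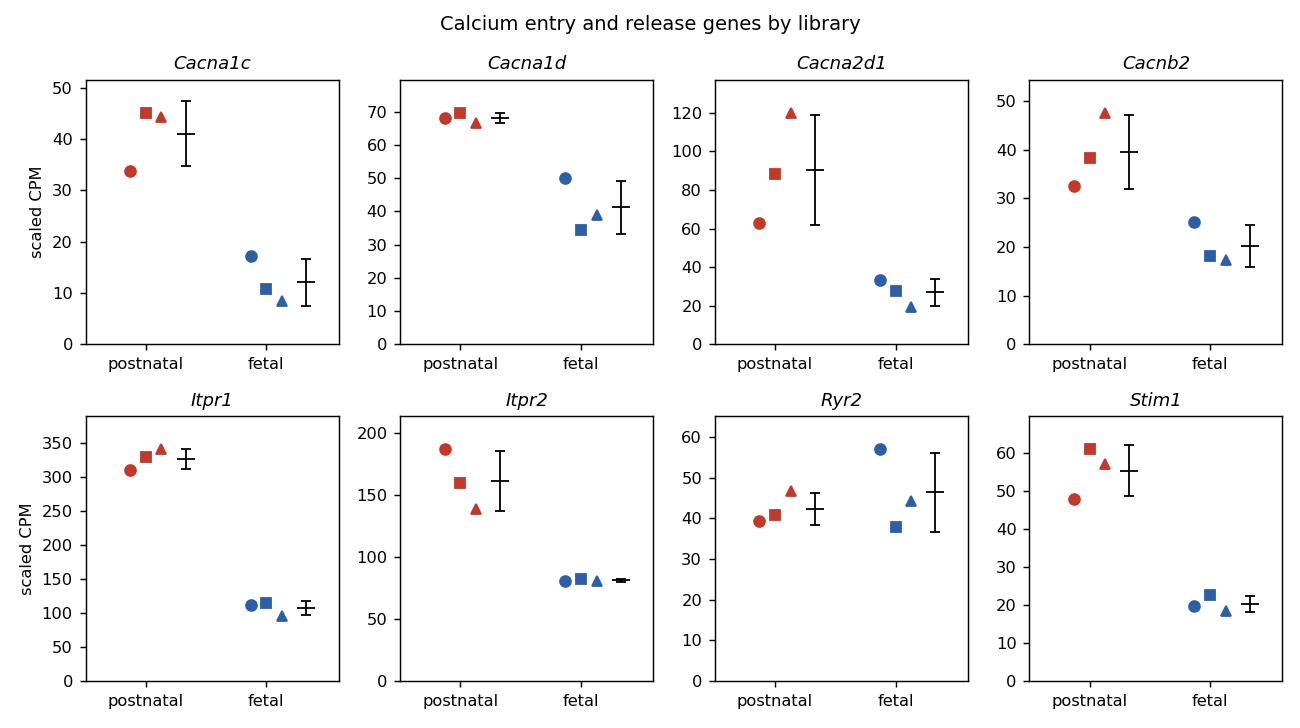
Calcium entry and release genes by library, in scaled CPM on a linear axis that starts at 0, with postnatal libraries in red on the left and fetal libraries in blue on the right. Circles, squares and triangles are replicates 1, 2 and 3, and the black bars are the mean ± SD of 3 libraries. The groups are apart in 7 of the 8 genes, and Ryr2 is the one in which they overlap.

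The sodium channel genes Scn2a, Scn2b, Scn3a, Scn7a, Scn8a and Scn9a were all higher after birth, and Scn7a had the largest log2 fold change of the 46 genes. Scn7a encodes an atypical sodium channel that senses extracellular sodium rather than voltage, and is known from glia, lung and peripheral nerve. It had 88.5, 191 and 138 scaled CPM in the postnatal libraries, against 2.82, 5.54 and 3.24 in the fetal libraries. The lowest postnatal value was many times the highest fetal value, and the rise was 4.82 ± 0.30 on the log2 scale (SE, adjusted p = 2.59e-05). Mesenchymal marker sums were higher in the postnatal libraries without overlap, and Schwann cell and glial markers moved both ways (both given above). The part of these cells in the Scn7a values was not tested.

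Scn3a and Scn9a encode voltage-gated pores that have been recorded in rodent beta and alpha cells. Scn3a had 88.8, 122 and 157 scaled CPM in the postnatal libraries, against 21.2, 25.1 and 14.4 in the fetal libraries. Scn9a, also the pore of pain-sensing neurons, had 29.4, 42.2 and 67.2 scaled CPM in the postnatal libraries, against 15.0, 15.5 and 13.5 in the fetal libraries. In both, replicate 3 was the highest of the postnatal libraries and no fetal value reached the postnatal range. Scn3a rose by 2.54 ± 0.25 on the log2 scale (SE, adjusted p = 1.36e-04) and Scn9a by 1.52 ± 0.26 on the log2 scale (SE, adjusted p = 0.00167). Scn2a, a pore of central neurons that lies beside Scn3a, had 7.09, 12.8 and 17.0 scaled CPM in the postnatal libraries, against 2.64, 2.64 and 2.34 in the fetal libraries. It rose by 1.83 ± 0.28 on the log2 scale (SE, adjusted p = 8.33e-04), and its fetal values were nearly equal. The promoters of these 3 genes and of Scn7a are the ones shown above. How reads shared between such similar genes were counted is not given in the sources used here.

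The Scn9a to Scn3a ratio was 0.331, 0.345 and 0.429 in the postnatal libraries, against 0.708, 0.617 and 0.942 in the fetal libraries. It was lower in every postnatal library, at 0.492 of the fetal ratio on the log-scale mean (two-sided exact permutation p = 0.1, adjusted 0.125 over 5 pairs).

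Scn8a, a pore of nodes of Ranvier, had 4.15, 5.47 and 5.53 scaled CPM in the postnatal libraries, against 4.30, 2.71 and 2.74 in the fetal libraries. Fetal replicate 1 lay just above the lowest postnatal value, so the groups overlapped. The difference of 0.52 ± 0.19 on the log2 scale (SE, adjusted p = 0.0449) was the weakest call among the sodium channels, and it was lost with edgeR on the recovered reads (adjusted p = 0.0519), without a filter (adjusted p = 0.0721) and when fetal replicate 2 or 3 or postnatal replicate 2 or 3 was left out (adjusted p 0.122 to 0.137). Scn4a, Scn10a and Scn11a, the pores of skeletal muscle and of sensory neurons, peaked at 0.491, 0.478 and 0.344 scaled CPM. None of them was tested.

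Scn2b encodes a beta subunit, a class of proteins that anchor sodium channels and speed their gating. Scn2b had 5.72, 6.13 and 7.44 scaled CPM in the postnatal libraries, against 4.67, 3.90 and 3.91 in the fetal libraries, without overlap. It rose by 0.52 ± 0.15 on the log2 scale (SE, adjusted p = 0.0165), a call lost when fetal replicate 2, fetal replicate 3 or postnatal replicate 3 was left out (adjusted p = 0.0586, 0.0544 and 0.0588). Scn4b peaked at 1.89 scaled CPM and was not tested. Scn3b is not analysed here.

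**Figure D3:**
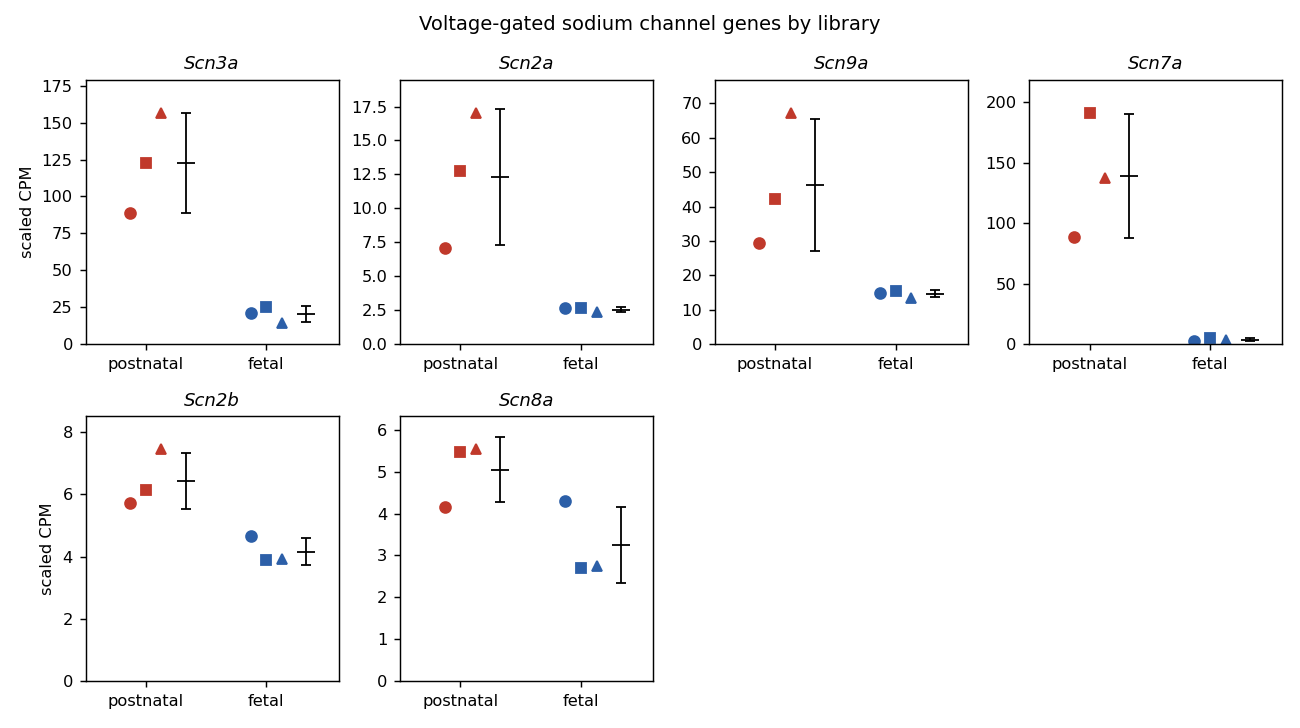
Sodium channel pore and beta subunit genes by library, in scaled CPM on linear axes that start at 0, with postnatal libraries in red on the left and fetal libraries in blue on the right. Circles, squares and triangles are replicates 1, 2 and 3, and the black bars are the mean ± SD of 3 libraries. Scn7a lies near 0 in every fetal library, and Scn8a is the gene in which the groups overlap.

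The IP3 receptors, ER channels that release calcium after hormone and transmitter signals, were higher after birth, while 1 of the 3 ryanodine receptors passed the test. Itpr1 had 311, 329 and 341 scaled CPM in the postnatal libraries, against 112, 115 and 96.0 in the fetal libraries. Itpr2 had 187, 159.7 and 138 scaled CPM in the postnatal libraries, against 80.3, 82.4 and 80.6 in the fetal libraries. The groups were far apart for both, with little spread inside the fetal group. Itpr1 rose by 1.60 ± 0.11 on the log2 scale (SE, adjusted p = 3.48e-05), and Itpr2 by 0.97 ± 0.12 on the log2 scale (SE, adjusted p = 3.61e-04). Itpr2 was 1 of only 3 higher genes whose highest postnatal value was in replicate 1. Itpr3 is not analysed here.

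Ryr2, the ryanodine receptor of heart and of beta cells, had 39.3, 40.9 and 46.7 scaled CPM in the postnatal libraries, against 57.0, 38.0 and 44.4 in the fetal libraries. The groups overlapped, and its log2 fold change of -0.12 ± 0.16 (SE, adjusted p = 0.536) did not pass. Ryr3 had 3.90, 5.16 and 5.29 scaled CPM in the postnatal libraries, against 2.27, 1.04 and 0.986 in the fetal libraries, and rose by 1.28 ± 0.23 on the log2 scale (SE, adjusted p = 0.00190). Ryr1, the release channel of skeletal muscle, averaged 2.09 ± 0.594 scaled CPM in the postnatal and 1.58 ± 0.285 in the fetal libraries (SD, n = 3 each), and its log2 fold change of 0.25 ± 0.19 (SE, adjusted p = 0.271) did not pass.

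Of the 7 calcium pump genes, 6 rose and Atp2c2 fell. Atp2a3 encodes SERCA3, an ER pump found in beta cells and blood cells, and Atp2a2 the widely expressed SERCA2. Atp2a3 had 302, 434 and 564 scaled CPM in the postnatal libraries, against 71.6, 67.6 and 40.3 in the fetal libraries. Atp2a2 had 471, 443 and 486 scaled CPM in the postnatal libraries, against 388, 370.1 and 383 in the fetal libraries. Neither overlapped, but the Atp2a2 groups lay closer together. Atp2a3 rose by 2.83 ± 0.28 on the log2 scale (SE, adjusted p = 1.36e-04). Atp2a2 rose by 0.29 ± 0.11 on the log2 scale (SE, adjusted p = 0.0437), a call lost when any 1 library was left out (adjusted p 0.0584 to 0.160). The Atp2a3 to Atp2a2 ratio was 0.641, 0.979 and 1.16 in the postnatal libraries, against 0.184, 0.183 and 0.105 in the fetal libraries. It was 5.90 times the fetal ratio on the log-scale mean, without overlap (two-sided exact permutation p = 0.1, adjusted 0.125 over 5 pairs).

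Pumps of the plasma membrane export calcium from the cell, and all 3 in the table passed. Atp2b1, the widely expressed form, had 159, 172 and 198 scaled CPM in the postnatal libraries, against 114, 119 and 95.5 in the fetal libraries. Atp2b4 had 30.5, 46.0 and 43.7 scaled CPM in the postnatal libraries, against 27.6, 21.1 and 12.1 in the fetal libraries. Atp2b2, a fast form known from hair cells and neurons, had 5.32, 7.23 and 10.2 scaled CPM in the postnatal libraries, against 0.982, 0.968 and 0.339 in the fetal libraries. No postnatal value reached down to a fetal one in any of the 3. Atp2b1 rose by 0.68 ± 0.13 on the log2 scale (SE, adjusted p = 0.00223), and Atp2b2 by 2.27 ± 0.25 on the log2 scale (SE, adjusted p = 2.37e-04). Atp2b2 met the minimum for testing through the postnatal libraries alone. Its log2 fold change was 3.34 with edgeR on the recovered reads and 1.11 with a pseudocount of 5. Atp2b4 rose by 1.002 ± 0.29 on the log2 scale (SE, adjusted p = 0.0170), a call lost without postnatal replicate 2 or 3 (adjusted p = 0.0578 and 0.0529). The Atp2b1 to Atp2b4 ratio was 5.22, 3.73 and 4.52 in the postnatal and 4.13, 5.64 and 7.92 in the fetal libraries, which overlapped (two-sided exact permutation p = 0.4).

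The Golgi pumps, which load calcium and manganese into the secretory pathway, went in opposite directions. Atp2c1 had 124, 128 and 143 scaled CPM in the postnatal libraries, against 103, 102 and 116 in the fetal libraries. Atp2c2, the form of secretory epithelia, had 1.87, 1.51 and 1.33 scaled CPM in the postnatal libraries, against 4.36, 3.78 and 4.96 in the fetal libraries. Atp2c1 rose by 0.30 ± 0.10 on the log2 scale (SE, adjusted p = 0.0330), a call lost when fetal replicate 1 or 2 or postnatal replicate 2 or 3 was left out (adjusted p 0.0708 to 0.122). Atp2c2 changed by -1.06 ± 0.16 on the log2 scale (SE, adjusted p = 8.35e-04), with every postnatal value below every fetal one. Duct marker sums were also lower in every postnatal library (given above). Acinar marker sums went the other way, at 187590 to 547000 scaled CPM after birth and 47740 to 73591 in the fetus. The part of these cells in the Atp2c2 values was not tested.

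Store-operated entry refills the ER: STIM proteins sense a fall of ER calcium and open ORAI pores in the plasma membrane. Stim1 had 48.1, 61.0 and 57.2 scaled CPM in the postnatal libraries, against 19.8, 22.7 and 18.4 in the fetal libraries. Stim2 had 65.8, 73.6 and 77.4 scaled CPM in the postnatal libraries, against 68.3, 71.7 and 75.2 in the fetal libraries. The Stim1 groups were widely separate, and the Stim2 groups overlapped. Stim1 rose by 1.40 ± 0.13 on the log2 scale (SE, adjusted p = 9.84e-05), and the log2 fold change of 0.01 ± 0.10 (SE, adjusted p = 0.950) of Stim2 did not pass. The Stim1 to Stim2 ratio was 0.731, 0.829 and 0.740 in the postnatal libraries, against 0.290, 0.317 and 0.245 in the fetal libraries, a 2.71-fold higher ratio without overlap (two-sided exact permutation p = 0.1, adjusted 0.125 over 5 pairs).

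All 3 ORAI pore genes were higher after birth. Orai1 had 7.34, 8.19 and 7.17 scaled CPM in the postnatal libraries, against 4.54, 5.61 and 4.53 in the fetal libraries. Orai2 had 11.9, 5.82 and 5.70 scaled CPM in the postnatal libraries, against 2.98, 1.96 and 2.59 in the fetal libraries. Orai3 had 13.9, 14.0 and 15.2 scaled CPM in the postnatal libraries, against 8.75, 9.92 and 9.80 in the fetal libraries. No postnatal value fell into a fetal range, and replicate 1 stood highest among the postnatal Orai2 values. The rises were 0.54 ± 0.14 on the log2 scale (SE, adjusted p = 0.0103) for Orai1. They were 1.27 ± 0.27 on the log2 scale (SE, adjusted p = 0.00454) for Orai2 and 0.55 ± 0.12 on the log2 scale (SE, adjusted p = 0.00422) for Orai3.

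**Figure D4:**
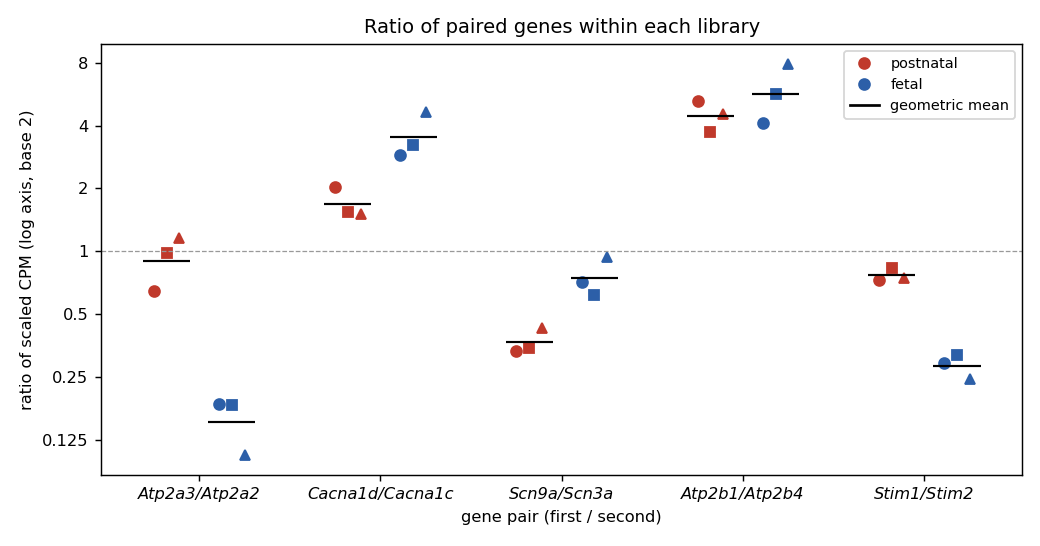
Ratio of the scaled CPM of 2 related genes within each library, on a log axis of base 2, for the 5 pairs with enough reads, postnatal libraries in red on the left and fetal libraries in blue on the right. Circles, squares and triangles are replicates 1, 2 and 3, and black lines are geometric means. The groups do not overlap in 4 pairs, with Atp2a3/Atp2a2 and Stim1/Stim2 higher and Cacna1d/Cacna1c and Scn9a/Scn3a lower after birth, and they overlap for Atp2b1/Atp2b4.

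TRP channels are cation channels opened by lipids, calcium, heat or stretch rather than chiefly by voltage. The TRPC genes Trpc4, Trpc5 and Trpc6 rose. These are receptor-operated channels that open downstream of phospholipase C. Trpc5 had 5.11, 5.40 and 7.72 scaled CPM in the postnatal libraries, against 0.982, 1.19 and 1.11 in the fetal libraries. Trpc6, also a channel of smooth muscle and pericytes, had 7.95, 15.1 and 13.9 scaled CPM in the postnatal libraries, against 3.32, 4.79 and 3.14 in the fetal libraries. In both genes every postnatal value lay above the fetal range. Trpc5 rose by 1.74 ± 0.18 on the log2 scale (SE, adjusted p = 1.53e-04), and Trpc6 by 1.46 ± 0.25 on the log2 scale (SE, adjusted p = 0.00157). Trpc4 averaged 4.12 ± 0.561 scaled CPM in the postnatal and 0.732 ± 0.246 in the fetal libraries (SD, n = 3 each) and rose by 1.57 ± 0.17 on the log2 scale (SE, adjusted p = 2.04e-04). Mesenchyme and pericyte markers were higher too, and their part in these values was not tested. Trpc7 peaked at 0.516 scaled CPM and was not tested. Trpc5os had 1 read in each postnatal library and 0 in each fetal library, under the 3 reads taken as the limit of detection. Trpc4ap averaged 115 ± 10.9 scaled CPM in the postnatal and 127 ± 7.97 in the fetal libraries (SD, n = 3 each), and its log2 fold change of -0.14 ± 0.11 (SE, adjusted p = 0.270) did not pass. Trpc1 is not analysed here.

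The TRPM family moved both ways. Trpm2, a calcium-permeable channel opened by ADP-ribose and described in beta cells and leukocytes, had 2.23, 4.89 and 2.73 scaled CPM in the postnatal libraries, against 9.95, 6.61 and 7.03 in the fetal libraries. Its highest postnatal value was below its lowest fetal value, and its change was -1.08 ± 0.25 on the log2 scale (SE, adjusted p = 0.00698). Hormone sums were higher in the postnatal libraries, and 4 of 7 leukocyte markers were higher although the sums overlapped (given above). Their part in the Trpm2 values was not tested. Trpm3, a steroid- and heat-sensitive channel described in beta cells, had 12.0, 16.6 and 18.1 scaled CPM in the postnatal libraries, against 2.06, 2.08 and 1.66 in the fetal libraries. Trpm5, a calcium-activated channel of beta and taste cells, had 16.8, 11.6 and 19.4 scaled CPM in the postnatal libraries, against 8.60, 5.61 and 4.47 in the fetal libraries. Neither overlapped, and both were higher after birth. Trpm3 rose by 2.48 ± 0.18 on the log2 scale (SE, adjusted p = 4.27e-05), and Trpm5 by 1.24 ± 0.25 on the log2 scale (SE, adjusted p = 0.00355).

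Trpm4, another calcium-activated channel, had 42.8, 33.8 and 24.1 scaled CPM in the postnatal libraries, against 35.9, 34.5 and 32.9 in the fetal libraries. All 3 fetal values lay inside the postnatal range, and its log2 fold change of -0.07 ± 0.19 (SE, adjusted p = 0.756) did not pass. Trpm6, a magnesium channel that met the minimum for testing through the postnatal libraries alone, averaged 1.57 ± 0.754 scaled CPM in the postnatal and 0.723 ± 0.174 in the fetal libraries (SD, n = 3 each). Its log2 fold change of 0.55 ± 0.22 (SE, adjusted p = 0.0650) did not pass, but edgeR (adjusted p = 0.0369) and DESeq2 (adjusted p = 0.0326) on the recovered reads called it higher. Trpm1 and Trpm8 peaked at 0.154 and 0.757 scaled CPM and were not tested. Trpm7 is not analysed here.

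Of the TRPV genes, Trpv2 and Trpv4 rose. Trpv4, a channel opened by swelling and warmth, had 2.68, 4.30 and 3.52 scaled CPM in the postnatal libraries, against 1.32, 0.823 and 0.894 in the fetal libraries. Trpv2 averaged 4.42 ± 0.981 scaled CPM in the postnatal and 1.22 ± 0.399 in the fetal libraries (SD, n = 3 each). The groups were apart in both. Trpv4 rose by 1.15 ± 0.19 on the log2 scale (SE, adjusted p = 0.00127), and Trpv2 by 1.29 ± 0.21 on the log2 scale (SE, adjusted p = 0.00116). Trpv6, an epithelial calcium channel, averaged 1.36 ± 0.136 scaled CPM in the postnatal and 2.06 ± 0.720 in the fetal libraries (SD, n = 3 each). Its log2 fold change of -0.35 ± 0.19 (SE, adjusted p = 0.149) did not pass, though every postnatal value was below every fetal one. Trpv1, the capsaicin receptor, peaked at 0.964, Trpv3 at 0.239 and Trpv5 at 0.0726 scaled CPM, and none was tested.

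**Figure D5:**
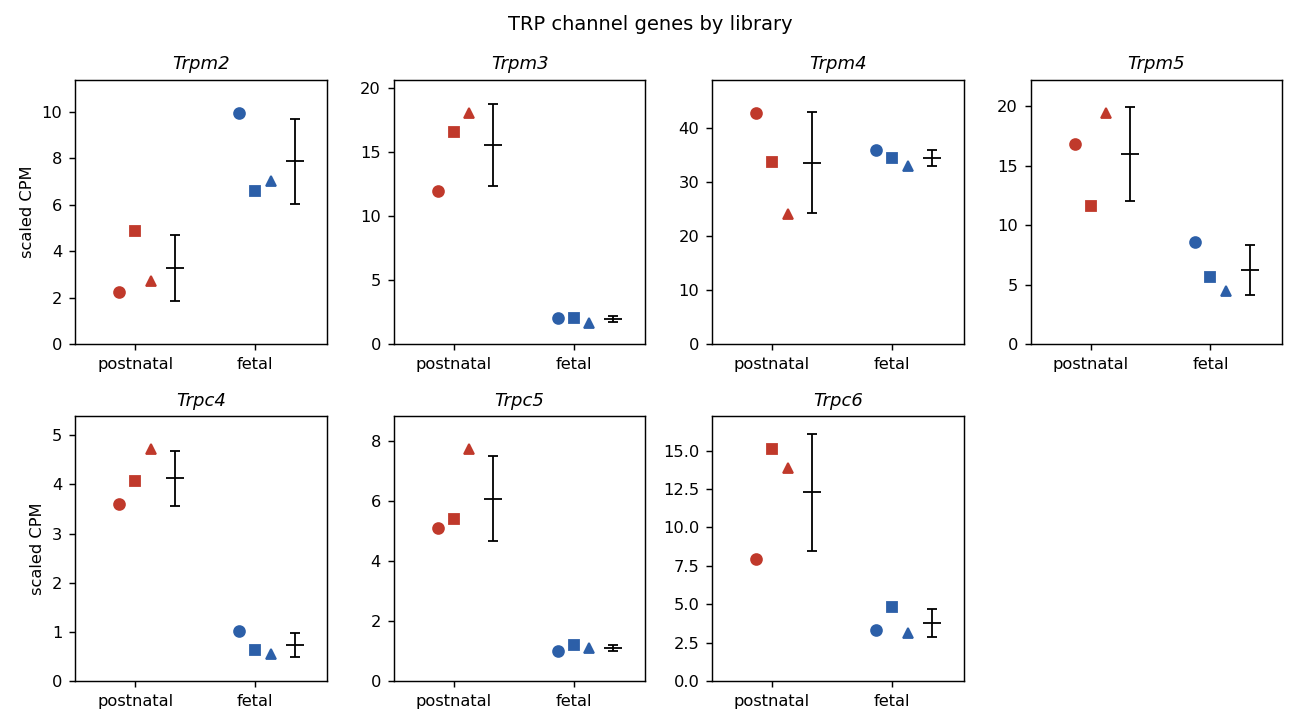
TRPM and TRPC channel genes by library, in scaled CPM on linear axes that start at 0, with postnatal libraries in red on the left and fetal libraries in blue on the right. Circles, squares and triangles are replicates 1, 2 and 3, and the black bars are the mean ± SD of 3 libraries. Trpm2 is the gene lower in every postnatal library, Trpm4 overlaps, and the other 5 are higher in every postnatal library.

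Other genes of calcium and sodium handling, listed by role, moved in both directions. Of 103 listed, 92 were in the table and 74 were tested, of which 39 were higher, 13 lower and 22 not called. Among all genes tested, 30.0% were called higher, 33.1% lower and 63.1% in either direction. These shares are the background for the count of every list below. Exchangers that trade calcium for sodium were higher in 4 of 4. Slc24a2, a potassium-dependent exchanger, averaged 26.4 ± 7.71 scaled CPM in the postnatal and 1.31 ± 0.653 in the fetal libraries and rose by 3.56 ± 0.29 on the log2 scale (SE, adjusted p = 6.10e-05). Slc8a1, the sodium-calcium exchanger of heart and beta cells, averaged 119 ± 27.1 scaled CPM in the postnatal and 32.4 ± 9.79 in the fetal libraries and rose by 1.86 ± 0.25 on the log2 scale (SE, adjusted p = 5.37e-04). Means here are ± SD of 3 libraries. Further cation channels were higher in 7 of 12 and lower in 1, the lysosomal channel gene Mcoln2, named after its values were seen. Nalcn, the sodium leak channel, averaged 17.2 ± 6.44 scaled CPM in the postnatal and 0.864 ± 0.521 in the fetal libraries and rose by 3.27 ± 0.30 on the log2 scale (SE, adjusted p = 9.31e-05). Unc80, part of the same complex, averaged 59.6 ± 11.3 scaled CPM in the postnatal and 10.6 ± 4.17 in the fetal libraries and rose by 2.44 ± 0.29 on the log2 scale (SE, adjusted p = 2.90e-04).

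Regulators of the channels and pumps were higher in 10 and lower in 4 of 22, where 30.0% of all genes tested were called higher and 33.1% lower. Gem and Rrad, small GTPases that hold back L-type channels, had the largest log2 fold changes in that list, with rises of 2.26 ± 0.33 on the log2 scale (SE, adjusted p = 7.88e-04) for Gem, and 2.17 ± 0.25 on the log2 scale (SE, adjusted p = 2.78e-04) for Rrad. The means were 40.3 ± 17.6 scaled CPM and 15.6 ± 4.99 scaled CPM in the postnatal libraries, against 7.27 ± 2.30 and 2.60 ± 0.600 in the fetal libraries (SD, n = 3 each). Calcium buffers and ER calcium binders were higher in 4 and lower in 2 of 9. Vsnl1, a neuronal calcium sensor, rose by 2.28 ± 0.23 on the log2 scale (SE, adjusted p = 1.40e-04), and Casq2, the calsequestrin of heart, by 2.24 ± 0.21 on the log2 scale (SE, adjusted p = 1.11e-04). The genes that fell, named after their values were seen, were Calr, encoding the ER chaperone calreticulin, and Calu, encoding calumenin. Calr averaged 640.5 ± 108 scaled CPM in the postnatal and 1377 ± 162 in the fetal libraries and changed by -1.11 ± 0.18 on the log2 scale (SE, adjusted p = 0.00135).

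The mitochondrial uniporter genes were evenly divided, with 3 higher and 3 lower of 8. This split is close to that of all genes tested (30.0% higher, 33.1% lower). Mcu, the uniporter pore, averaged 14.0 ± 0.575 scaled CPM in the postnatal and 29.4 ± 2.65 in the fetal libraries and changed by -1.02 ± 0.11 on the log2 scale (SE, adjusted p = 2.14e-04). Micu3, a regulatory subunit known from brain, averaged 19.1 ± 3.05 scaled CPM in the postnatal and 8.60 ± 0.418 in the fetal libraries and rose by 1.06 ± 0.14 on the log2 scale (SE, adjusted p = 4.67e-04). Genes of calmodulin, its kinases and calcineurin were higher in 11 and lower in 3 of 19. Among the higher ones, Camk2b and Camk2g, named after their values were seen, had nearly the same value in every library. Their means were 21.4 and 21.6 scaled CPM after birth and 13.6 and 13.7 in the fetus, so they may not be separate counts. Camk1g, a calmodulin-dependent kinase, rose by 1.27 ± 0.19 on the log2 scale (SE, adjusted p = 8.19e-04), and Rcan2, a calcineurin inhibitor, by 1.22 ± 0.18 on the log2 scale (SE, adjusted p = 8.40e-04).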

How the data were processed

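Total RNA of freshly isolated islets was depleted of ribosomal RNA and made into stranded libraries, per the labels' protocols. TopHat2 2.0.8b and edgeR 3.30.3 are named in the submitters' processing notes without their roles. The genome build, annotation, read counter and strand setting were not given in the sources used here, and reads of overlapping or antisense genes may be mixed. A normalized signal per gene and library was deposited, under a header that names no unit. Each deposited signal was a whole number of reads times 1 constant per library (100% of values within a tolerance of 0.001 reads), and the constants equal CPM of a TMM-adjusted library size, here called scaled CPM. A row with no gene name (1 to 9 reads a library) was not tested.

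Libraries were grouped by title. Log2(value + 1) was tested with limma 3.58.1 in R 4.3.3 (trend, group only, two-sided) over the 12926 genes at 1 scaled CPM or more in 3 or more libraries, with Benjamini-Hochberg adjustment and a threshold of 0.05. Fold changes on this scale understate the change of low genes. No library was a duplicate of another, since counts within a group differed beyond sampling noise (chi-square over its degrees of freedom 45.6 to 370). Ratios of gene pairs were compared by an exact permutation test (two-sided), where both genes had at least 3 reads in every library; 4 further pairs had a gene that is not analysed here. The alternatives tried were 2 rescalings, no filter and a filter at 5, pseudocounts of 0.1 and 5, edgeR 4.0.16 and DESeq2 1.42.0 on the recovered reads, a block for replicate number, labelled week as a covariate and left-out libraries. The test was also run on simulated reads in which few genes changed, in random directions, with the same dispersion for every gene. These data are unlike that setting, so the simulation does not vouch for the calls here.

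The genes, role and pathway lists and pairs were chosen with earlier results of these data known. The genes given in full are 31 listed by role, 25 of them in the table, and any other called gene whose higher group averaged 5 or more. From each pathway list the 2 called genes with the largest log2 fold change in either direction are named. Promoter sequences are RefSeq's on GRCr8, matched by symbol, using the first listed start of a gene. Some genes of the rule are counted but not reported here by name.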

Additional observations from a re-analysis of the deposited data

How the results depend on the processing

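Across the 17 alternatives, 29 to 40 of the channel and pump genes were higher and 1 or 2 lower, and no called gene changed direction. Of the genes not called, Cacna1h, Ryr2, Stim2, Trpc4ap and Trpm4 changed sign under some alternatives without passing the test. The count of 2 lower genes was 1 when a value of at least 5 was required, since Atp2c2 was then not tested. Leaving out 1 library gave 29 to 35 higher and 2 lower in each case. Of the 37 called genes, 30 kept the call under every alternative in which they were tested. The other 7 (Atp2a2, Atp2b4, Atp2c1, Cacna1b, Cacnb1, Scn2b and Scn8a) each lost it when a library was left out. With the replicate block, 31 genes were higher and 2 lower, the calls of Atp2a2, Atp2c1, Cacnb1 and Scn8a being lost. Libraries with the same replicate number did not visibly deviate together (correlations of -0.21, 0.10 and -0.25 for numbers 1, 2 and 3). Deviations from a mean of 3 libraries depend on each other, so these correlations cannot exclude a pairing by number. Without a filter, 40 of 68 were higher and 2 lower. Rescaling without the 20 genes of highest signal moved the median log2 fold change of all genes from -0.03 to 0.20 and the share of calls that were higher from 47.5% to 61.0% over all genes (5047 higher, 3222 lower). Among the channel and pump genes that share was 94.6% before and 94.7% after. The pseudocount moved the fold change by over 1.5 times in 12 called genes at a pseudocount of 5 and in 6 at 0.1, all low in the fetus. Scn7a was among the 12, with a log2 fold change of 4.82 in the main fit and 3.97 at a pseudocount of 5. edgeR and DESeq2 on the recovered reads moved 8 genes by as much, all low in the fetus, and called 35 and 36 higher. Calls in the pathway lists numbered 41 to 56 against 52, and the log2 ratio differences of the 5 pairs kept their direction in all 8 alternatives run for them.

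Only 3 libraries per group were available, and the titles and age labels of the postnatal group differ. Genes with under 3 reads in a library are below the limit of detection there.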
